A study of Homo sapiens with 6 samples.

Results

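The mRNAs described here are those of the 2 genes that encode the replacement histone H3.3, H3F3A and H3F3B, and of 6 of its chaperones, HIRA, UBN1, CABIN1, ASF1A, DAXX and ATRX. They were picked by symbol and make up 8 of the 20030 genes in the deposited tables. The study knocked down KIF11, a motor protein of the mitotic spindle, in HepG2, an established human hepatoma line. Stable cells carried either control shRNA (sh-ctrl, 3 libraries) or shRNA against KIF11 (sh-KIF11, 3 libraries), delivered by lentivirus with puromycin selection. How many shRNA sequences against KIF11 were used is not given in the sources used here, and no other treatment is named for these libraries. The labels do not say whether the libraries of a group came from separate cultures, so the p-values measure the spread between these libraries, which may be technical.

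Histone H3.3 is placed into chromatin outside DNA replication, unlike the replicative H3.1 and H3.2, whose genes are expressed mainly in S phase. The HIRA complex, built from HIRA, UBN1 and CABIN1 and fed with H3-H4 by ASF1A, places H3.3 at active genes and regulatory elements. DAXX, working with the chromatin remodeller ATRX, places it at telomeres, pericentric repeats and other silent regions. The study asked what part H3.3 has in the response to KIF11 loss. From separate measurements, which were not re-examined here, it reports lower H3.3 mRNA and protein in HepG2 cells after KIF11 knockdown. The libraries address only whether the mRNAs of H3.3 and of its chaperones differed between the groups. In bulk RNA of this kind, fewer cells that hold an mRNA and less of it per cell cannot be told apart.

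Depth was 18167773 to 19583282 counts per library. KIF11 was counted 1976, 2088 and 2039 times in the sh-ctrl libraries and 1448, 1478 and 1240 times in those of sh-KIF11, and its log2 fold change was -0.75 ± 0.0573 (SE, adjusted p = 4.22e-15). Among markers of the labelled cell type, all 8 hepatocyte genes were detected, and their summed level was 22757 to 24512 CPM (counts scaled to a common library size) in sh-ctrl and 7653 to 8173 in sh-KIF11, with 7 of 8 lower. For the fibroblast list the sum was at most 0.558 CPM in any library, with DCN at 0 in all 6, and for the endothelial list it was 3.16 to 4.98 CPM, with TEK at 0 in all 6. For the immune list it was 2486 to 2984 CPM in sh-ctrl and 508 to 639 in sh-KIF11, nearly all from LYZ, while the FPKM of PTPRC was at most 0.00728 in every library. All 10 proliferation genes were called lower in sh-KIF11, against 34.7% of all tested genes in the test described below. Their sum went from 3005 to 3170 CPM down to 2307 to 2425 CPM. The part of these shifts in the values below was not tested.

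Both H3.3 genes encode the same protein from different codons, so their mRNAs differ even within the coding part. The main transcripts, of 1863 bases for H3F3A and 2705 for H3F3B, also hold sequence outside it. Which part lets reads be assigned to each gene was not tested. On GRCh38 (GENCODE release 29), H3F3A lies at chr1:226061851-226072001 on the plus strand and H3F3B at chr17:75776434-75785893 on the minus strand. Their coding sequences, 408 bases without the stop codon, differed at 88 positions (78.4% identity), with 0 differences over the 136 encoded residues. Of those positions, 77 were the third base of a codon, and the longest run that both share was 14 bases. The opening 150 coding bases of each, 5′ to 3′ with the 30 differing bases in capitals, are shown because the split between these mRNAs is a result below. The stretch of H3F3A is joined from the exons at chr1:226064352-226064479 and chr1:226065656-226065677, and that of H3F3B from chr17:75779047-75779174 and chr17:75778942-75778963.
H3F3A: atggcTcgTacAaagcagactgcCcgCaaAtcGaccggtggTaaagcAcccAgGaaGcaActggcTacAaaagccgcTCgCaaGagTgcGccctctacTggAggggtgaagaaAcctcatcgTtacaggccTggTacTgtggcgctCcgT
H3F3B: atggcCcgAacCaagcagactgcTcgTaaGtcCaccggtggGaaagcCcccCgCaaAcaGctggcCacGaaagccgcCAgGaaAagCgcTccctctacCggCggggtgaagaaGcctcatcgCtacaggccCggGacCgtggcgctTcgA

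Of all 150-base windows of the main H3F3A transcript, 7.82% were also found letter for letter in its pseudogenes H3F3AP4 and H3F3AP6, against 0 windows of H3F3B. Reads from those windows of H3F3A are uncertain, since the handling of reads with several matches is not given in the sources used here. For comparison, the encoded H3.1 (HIST1H3A) differed from H3.3 at 5 residues.

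After TMM normalization, which scales libraries so that most genes are level, all 8 genes passed the filter on low counts and 5 passed the test at an adjusted p under 0.05 (quasi-likelihood test of edgeR, adjusted by Benjamini-Hochberg over 12369 genes). ATRX and ASF1A were higher in sh-KIF11, whereas H3F3A, CABIN1 and DAXX were lower, and H3F3B, HIRA and UBN1 were not called. Over all tested genes 69.1% were called, 34.4% higher and 34.7% lower, so the count of 5 of 8 lies near the background. The median log2 fold change of the 8 genes was -0.08, against 0.0043 over all tested genes. Libraries of the groups did not overlap in TMM-normalized CPM for 4 of the 8 genes (ATRX, H3F3A, CABIN1 and DAXX), against 71.2% of all tested genes.

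**Figure D1:**
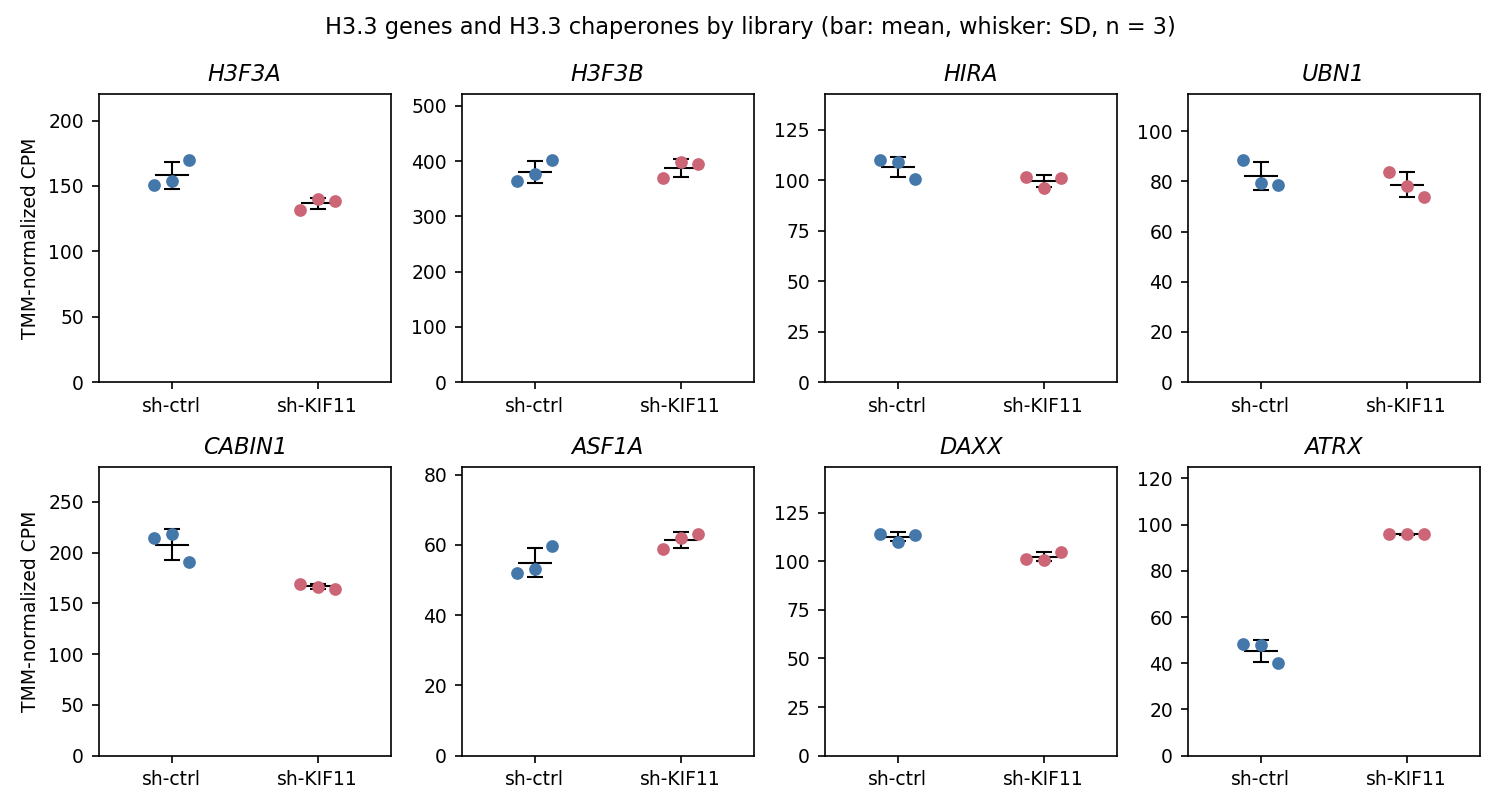
Each panel plots 1 gene, with TMM-normalized CPM on the y axis from 0 and the 3 libraries of each group as points; bars are means and whiskers SDs. ATRX stands at 39.9 to 48.5 CPM in sh-ctrl and at 95.7 to 96.1 in sh-KIF11, and the other 7 genes moved far less.

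The size of these changes depended on how the libraries were scaled. Libraries of sh-ctrl had TMM factors of 0.922 to 0.926 and those of sh-KIF11 of 1.08 to 1.09. With library totals alone the median of all tested genes moved to 0.235 on the log2 scale, and with log2(FPKM + 1) to 0.12. The genes H3F3A, HIRA, UBN1, CABIN1 and DAXX, whose changes were small, moved with that median. Measured against the median of all genes within each setting, H3F3A stayed between -0.29 and -0.12 over the 16 settings run, CABIN1 between -0.40 and -0.23, DAXX between -0.21 and -0.08, ASF1A between 0.08 and 0.20 and ATRX between 0.84 and 1.11. On the same measure HIRA ranged from -0.18 to -0.003, UBN1 from -0.14 to -0.01 and H3F3B from -0.05 to 0.09.

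**Figure D2:**
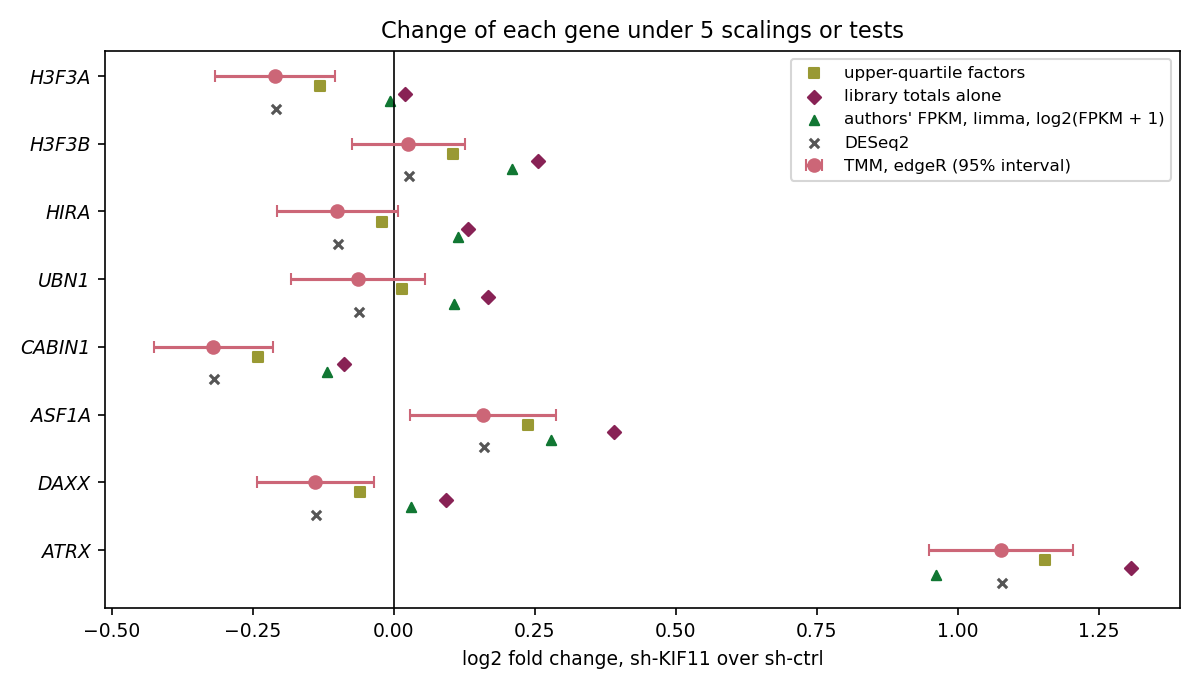
The x axis is the log2 fold change of sh-KIF11 over sh-ctrl and each row 1 gene; circles with 95% intervals are the edgeR fit with TMM, and other symbols the same genes under other scalings or tests. ATRX lies between 0.96 and 1.31 in all of them, while H3F3A (0.02) and DAXX (0.09) cross 0 with library totals alone.

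Of the H3.3 genes themselves, H3F3A was modestly lower and H3F3B was level. H3F3A was counted 2692, 2775 and 2865 times in the sh-ctrl libraries and 2644, 2891 and 2732 times in those of sh-KIF11. In TMM-normalized CPM these were 151, 154 and 170 against 132, 140 and 139, so that every sh-KIF11 library lay below every sh-ctrl library. The log2 fold change was -0.21 ± 0.0524 (SE, adjusted p = 0.000512), which became 0.02 (adjusted p = 0.733) with library totals alone and -0.01 (adjusted p = 0.915) with log2(FPKM + 1), the adjusted p running from 8.14e-05 to 0.915 over all 15 alternatives. The raw counts of H3F3A overlapped between the groups, and its lower value depended on the kind of scaling. H3F3A was called lower with TMM and with upper-quartile factors (-0.13, adjusted p = 0.0249), but not with library totals alone or with FPKM.

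H3F3B was counted 6477, 6811 and 6782 times in the sh-ctrl libraries and 7399, 8262 and 7785 times in those of sh-KIF11. Its TMM-normalized CPM were 363, 377 and 402 against 369, 399 and 395, and the groups overlapped. The log2 fold change was 0.03 ± 0.0497 (SE, 95% interval -0.07 to 0.13, adjusted p = 0.663). It was 0.26 (adjusted p = 1.37e-05) with library totals alone and 0.21 (adjusted p = 0.00389) with log2(FPKM + 1), and the adjusted p spanned 1.37e-05 to 0.973 over the 15 alternatives.

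The balance between the H3.3 mRNAs does not depend on scaling, since both are read from the same library. The log2 ratio of H3F3A to H3F3B counts was -1.27, -1.30 and -1.24 in sh-ctrl against -1.48, -1.51 and -1.51 in sh-KIF11. Every sh-KIF11 library lay below every sh-ctrl library, and the means differed by -0.24 (exact permutation test over libraries, two-sided, p = 0.1, the smallest that 3 against 3 allows). Per transcript length, in the FPKM of the authors, H3F3A supplied 55.1%, 54.4% and 55.3% of the H3.3 sum in sh-ctrl against 51.9%, 50.9% and 50.9% in sh-KIF11. The mean share went from 54.9% ± 0.468 to 51.2% ± 0.569 (SD, n = 3 each, exact permutation p = 0.1). The spread within each group was small beside the difference, and the exact permutation test, with 3 libraries against 3, cannot go below 0.1. The share given by counts in place of FPKM fell by 3.26 percentage points.

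The sum of both H3.3 mRNAs was 340, 349 and 370 FPKM in sh-ctrl against 359, 386 and 387 in sh-KIF11. The groups overlapped, and the means of 353 ± 15.1 and 377 ± 15.8 (SD, n = 3 each) differed by 24.1 FPKM (exact permutation test, two-sided, p = 0.2). In TMM-normalized CPM the difference was -14.8 (exact permutation p = 0.6), so its sign followed the scaling. Set against the other variant histones, H3.3 took a larger share in sh-KIF11. In TMM-normalized CPM those other variants summed to 1809 to 1871 in sh-ctrl and 1214 to 1226 in sh-KIF11. Both H3.3 genes summed to 514 to 572 in sh-ctrl and 501 to 539 in sh-KIF11, so with this scaling their sum was not higher. The counts of H3F3A and H3F3B made up 22.1%, 22.5% and 23.4% of all variant histone counts on a hand-written list in sh-ctrl against 28.99%, 30.6% and 30.5% in sh-KIF11. This comparison was chosen after the values were seen, its means were 22.7% ± 0.657 and 30.0% ± 0.908 (SD, n = 3 each, exact permutation p = 0.1), and with FPKM in place of counts the difference was 9.10 percentage points against 7.36.

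**Figure D3:**
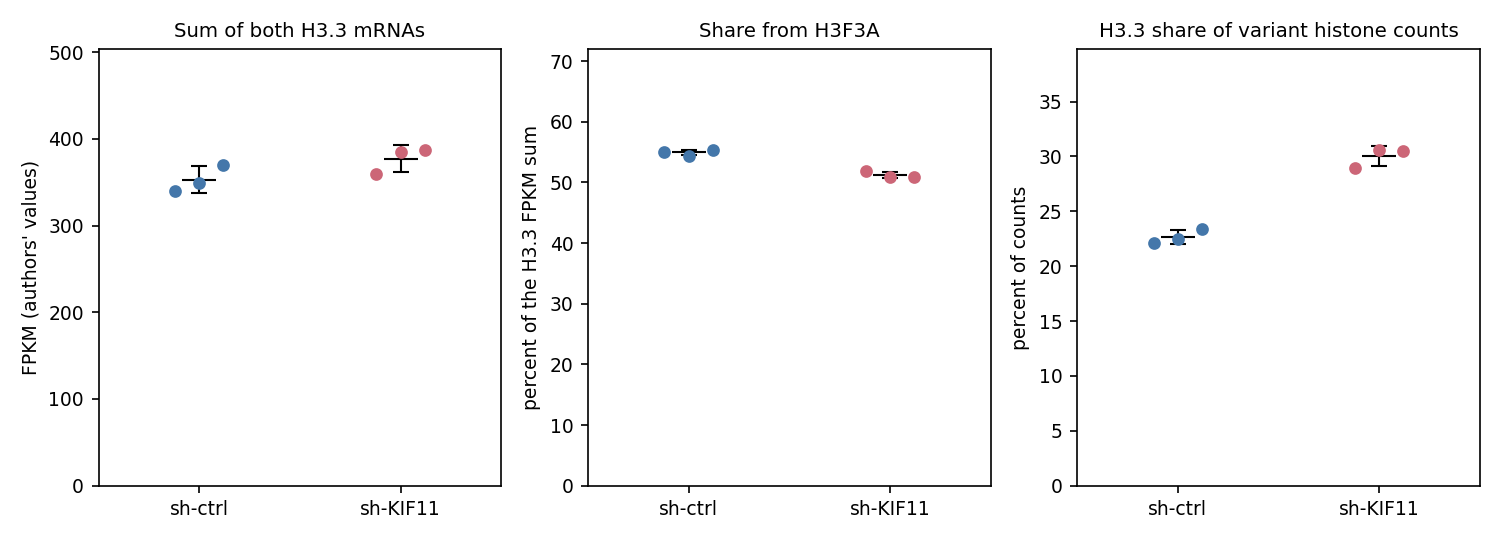
Points are libraries, bars means and whiskers SDs (n = 3 each), for the FPKM sum of both H3.3 mRNAs, the percentage of that sum from H3F3A and the percentage of variant histone counts from H3F3A and H3F3B, all from 0. The sums overlap, whereas the H3F3A share (54.4 to 55.3% against 50.9 to 51.9%) and the H3.3 share (22.1 to 23.4% against 28.99 to 30.6%) do not.

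Levels of the 8 genes were ordered in FPKM, which is per transcript length, unlike the shares and ratios by counts above. In sh-ctrl the order was H3F3A (194 ± 9.28 FPKM, SD), H3F3B (159 ± 6.10), ASF1A (24.8 ± 1.51), DAXX (22.7 ± 0.446), HIRA (18.6 ± 0.861), CABIN1 (8.30 ± 0.553), UBN1 (7.76 ± 0.534) and ATRX (2.98 ± 0.409), with n = 3 each. CABIN1 and UBN1 overlapped and the other neighbours did not. In sh-KIF11 the order was H3F3A (193 ± 6.02), H3F3B (184 ± 9.82), ASF1A (30.4 ± 1.44), DAXX (23.2 ± 0.462), HIRA (20.2 ± 0.801), UBN1 (8.43 ± 0.616), CABIN1 (7.55 ± 0.0638) and ATRX (6.72 ± 0.0354). Here H3F3A and H3F3B overlapped, UBN1 stood above CABIN1, and ATRX, still the lowest, came close to both.

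In the HIRA complex CABIN1 was lower and the other subunits were not called. HIRA, the scaffold subunit (chr22:19330698-19447450), was counted 1962, 1965 and 1702 times in the sh-ctrl libraries and 2035, 1990 and 1990 times in those of sh-KIF11. Its TMM-normalized CPM overlapped, at 101 to 110 in sh-ctrl and 96.1 to 101 in sh-KIF11, with a log2 fold change of -0.10 ± 0.0531 (SE, 95% interval -0.21 to 0.01, adjusted p = 0.0921). Its direction was not stable, since it was 0.13 (adjusted p = 0.0262) with library totals alone. Without sh-ctrl replicate 3 it became -0.14 (adjusted p = 0.00929), and the adjusted p ran from 0.00929 to 0.74 over the 15 alternatives. GENCODE also assigns 63.8% of the 150-base windows of the main HIRA transcript to transcripts of C22orf39, which overlaps it on the same strand, so how counting treated those reads bears on the level of HIRA. C22orf39, counted separately, had a log2 fold change of -0.26 (adjusted p = 0.0078).

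UBN1, the subunit that binds H3.3 itself (chr16:4846665-4882360), was counted 1578, 1434 and 1323 times in the sh-ctrl libraries and 1682, 1614 and 1459 times in those of sh-KIF11. The groups overlapped in TMM-normalized CPM, and the log2 fold change of -0.06 ± 0.0591 (SE, 95% interval -0.18 to 0.06, adjusted p = 0.345) turned to 0.02 with upper-quartile factors and to 0.17 (adjusted p = 0.0107) with library totals alone. Its paralog UBN2 was not called either, at -0.01 (adjusted p = 0.918).

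CABIN1, the third subunit of the complex (chr22:24011192-24178628), was counted 3827, 3947 and 3216 times in the sh-ctrl libraries and 3396, 3442 and 3243 times in those of sh-KIF11. In TMM-normalized CPM these were 215, 219 and 191 against 169, 166 and 164, with all sh-KIF11 libraries below all sh-ctrl libraries. The log2 fold change was -0.32 ± 0.0520 (SE, adjusted p = 8.89e-07), a ratio of 0.80. Its sign held under all 15 alternatives, although with library totals alone (-0.09, adjusted p = 0.121) and with log2(FPKM + 1) (-0.12, adjusted p = 0.098) it was not called, the adjusted p ranging from 1.13e-10 to 0.121.

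ASF1A, which hands H3-H4 dimers to HIRA (chr6:118894220-118909167), was counted 929, 960 and 1006 times in the sh-ctrl libraries and 1181, 1281 and 1247 times in those of sh-KIF11. In TMM-normalized CPM the groups met, at 52.1, 53.2 and 59.6 against 58.9, 61.9 and 63.2. The log2 fold change of 0.16 ± 0.0641 (SE, adjusted p = 0.0266) was positive in all 15 alternatives. It was not called without sh-ctrl replicate 1 (0.13, adjusted p = 0.105), without sh-ctrl replicate 2 (0.14, 0.101), without sh-KIF11 replicate 2 (0.15, 0.0776) or without sh-KIF11 replicate 3 (0.13, 0.114), and over all alternatives the adjusted p was 7.59e-07 to 0.114. The MCM9 gene overlaps ASF1A on the opposite strand, and the use of strand in counting is not given in the sources used here.

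In the DAXX-ATRX pair, DAXX was lower and ATRX higher with TMM, while the FPKM levels of both came closer to each other. DAXX, which binds H3.3-H4 directly (chr6:33318558-33323016), was counted 2037, 1988 and 1917 times in the sh-ctrl libraries and 2032, 2084 and 2071 times in those of sh-KIF11. In TMM-normalized CPM these were 114, 110 and 114 against 101, 101 and 105, without overlap. The log2 fold change was -0.14 ± 0.0515 (SE, adjusted p = 0.0160), and with library totals alone it was 0.09 (adjusted p = 0.106). The call was also lost without sh-ctrl replicate 1 (-0.12, adjusted p = 0.0518), without sh-KIF11 replicate 1 (-0.13, 0.0528) and without sh-KIF11 replicate 2 (-0.13, 0.0711), and the adjusted p spanned 0.0114 to 0.518 over the alternatives. A transcript annotated as AL662820.1 on the same strand shares 11.97% of the windows of DAXX.

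ATRX, the remodeller of the pair (chrX:77504878-77786233, minus strand), was counted 865, 862 and 674 times in the sh-ctrl libraries and 1921, 1981 and 1895 times in those of sh-KIF11. Its TMM-normalized CPM were 48.5, 47.8 and 39.9 in sh-ctrl against 95.7, 95.7 and 96.1 in sh-KIF11. The groups lay far apart, and the sh-KIF11 libraries were almost identical. The log2 fold change was 1.08 ± 0.0629 (SE, 95% interval 0.95 to 1.20, adjusted p = 8.04e-19), a ratio of 2.11. It stayed called and positive in all 15 alternatives (0.96 to 1.31, adjusted p from 3.84e-71 to 5.62e-06). Among all tested genes 905 (7.32%) had a log2 fold change at or above that of ATRX, so a change of this size was not rare in these libraries. None of the 150-base windows of its main transcript was found in another annotated gene.

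The log2 ratio of ATRX to DAXX FPKM was -2.85, -2.79 and -3.18 in sh-ctrl against -1.77, -1.77 and -1.83 in sh-KIF11. Its means of -2.94 and -1.79 differed by 1.15 without overlap (exact permutation p = 0.1), in a comparison chosen after the values were seen. The mean log2 FPKM of HIRA, UBN1 and CABIN1, less that of DAXX and ATRX, was 0.38, 0.33 and 0.41 in sh-ctrl against -0.14, -0.22 and -0.24 in sh-KIF11. That difference of -0.57 (exact permutation test, two-sided, p = 0.1) was -0.51 with ASF1A added to the side of HIRA. In the edgeR fit with TMM, of these 5 genes only ATRX had a ratio as large as 2.11 between the groups. The other 4 had ratios between 0.80 and 0.96 in that fit. In FPKM the means of HIRA, UBN1 and DAXX were slightly higher in sh-KIF11, and that of CABIN1 was lower.

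ATRX is by far the longest of these genes, spanning 281356 bases, and gene length moved with the fold change across the transcriptome. For 12328 of the 12369 tested genes a span could be matched by gene identifier. The 4723 genes of up to 20 kb had a median log2 fold change of -0.17, the 3440 genes of 20 to 50 kb of 0.03, the 1343 genes of 100 to 200 kb of 0.18 and the 647 genes of 200 to 500 kb of 0.24. ATRX lies in the last of these groups, where 76 genes (11.7%) were at or above it and the upper quartile was 0.62. HIRA and CABIN1, in the group of 100 to 200 kb, lay below its median, and CABIN1 was also below its lower quartile of -0.10. UBN1 (-0.06), in the group of 20 to 50 kb, lay below the median of that group. H3F3A, H3F3B, ASF1A and DAXX all fall in the shortest group. There H3F3B, ASF1A and DAXX (-0.14) lay above the median of -0.17 and H3F3A (-0.21) below it. The bins were chosen after the data were seen, and the part of gene length in the change of ATRX was not tested.

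**Figure D4:**
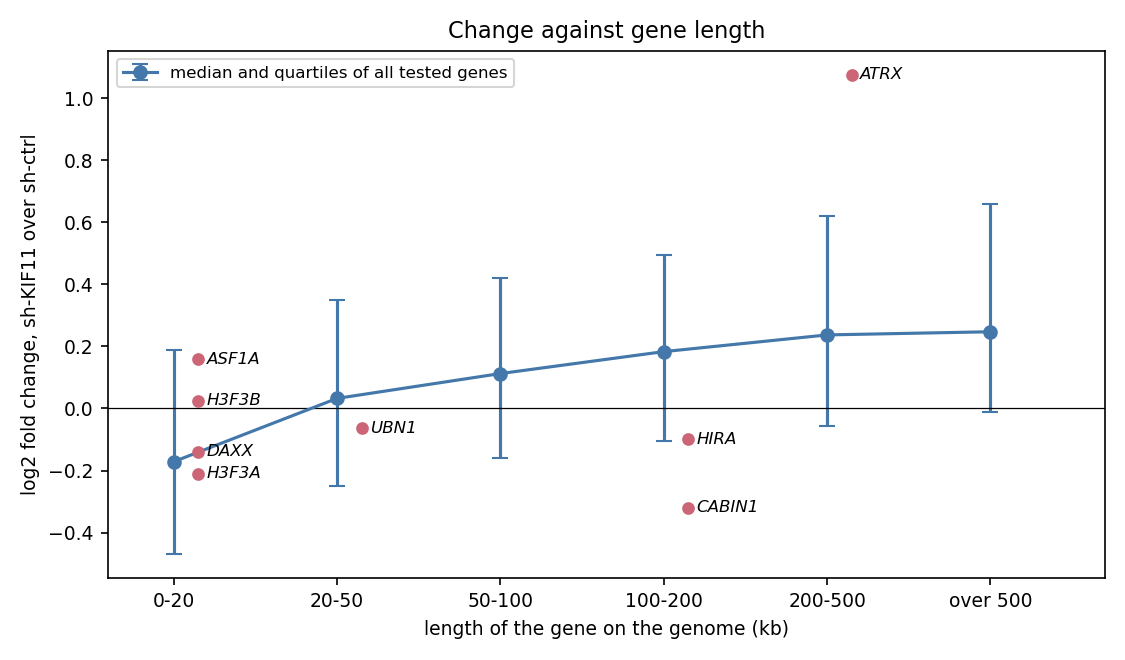
The x axis gives bins of gene length on the genome in kb and the y axis the log2 fold change of sh-KIF11 over sh-ctrl (edgeR, TMM); blue points with bars are the median and quartiles of all tested genes in a bin, red points the H3.3 genes and chaperones. Medians run from -0.17 in the shortest bin to 0.25 in the longest, and ATRX, at 1.08, lies above the upper quartile of its bin (0.62).

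Partners and regulators of H3.3 outside the 8 genes were more often higher than lower. Of 12 such genes on a hand-written list, 6 were called higher, 2 lower and 4 not (median 0.19). Over all tested genes 69.1% were called, 34.4% higher and 34.7% lower. With library totals alone 9 of the list were higher and 1 lower, where 73.6% of all called genes were higher. MORC3, an ATPase of PML nuclear bodies, rose by 0.80 on the log2 scale (adjusted p = 6.66e-12), and SP100, another component of these bodies and an H3.3 binder, rose by 0.76 (4.26e-11). CHD1, a remodeller that works with H3.3 at active genes, rose by 0.51 (8.06e-10). The genes said here and below to have risen or fallen kept their sign in every setting run. DAXX and ATRX also reside in PML bodies, whereas PML itself, the scaffold of these bodies, was not called (-0.14, adjusted p = 0.128).

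Chaperones that serve DNA replication went mainly the other way. Of 12 genes, 10 were lower, 1 higher and 1 not called (median -0.29), against 34.7% lower and 34.4% higher over all tested genes. These counts became 4 lower and 2 higher with library totals alone. ASF1B, the paralog of ASF1A that is tied to cell proliferation, fell by 0.68 (adjusted p = 1.82e-09), so that ASF1A (0.16) and ASF1B had opposite signs. MCM2, the helicase subunit that binds H3-H4 at the fork, fell by 0.60 (4.90e-13), and CHAF1B, a subunit of the replication chaperone CAF-1, fell by 0.53 (4.53e-08). HAT1, which acetylates newly made H4, was the gene called higher (0.17, adjusted p = 0.0073), but not without sh-ctrl replicate 2 (0.14, adjusted p = 0.0608). These genes moved beside the proliferation genes, of which all 10 were lower, and the part of proliferation was not tested.

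Most other variant histone genes were lower. Of 10 genes, 8 were lower, 1 higher and 1 not called (median -0.44), against 34.7% lower and 34.4% higher over all tested genes. With library totals alone 5 were lower and 1 higher. H1FX, a linker histone, fell by 1.07 (adjusted p = 1.12e-19), CENPA, the H3 variant of centromeres, fell by 0.87 (4.99e-13) and H2AFX, the variant phosphorylated at DNA breaks, fell by 0.84 (1.71e-18). H2AFY2, a macroH2A gene, was the gene that rose (0.64, adjusted p = 3.66e-11). With TMM, H3F3A (-0.21) and H3F3B (0.03) lay closer to 0 than 9 of these 10 genes, all but H3F3C (-0.05, adjusted p = 0.913). The difference between the lists was not tested.

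**Figure D5:**
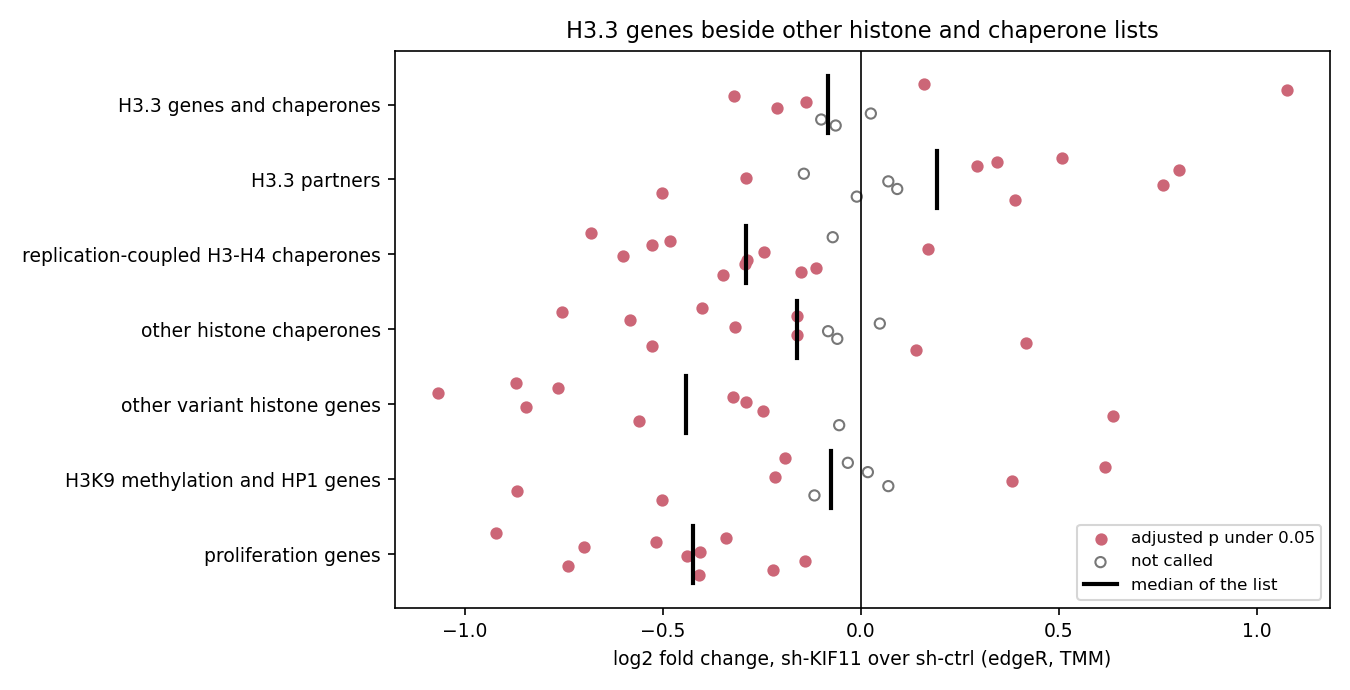
The x axis is the log2 fold change of sh-KIF11 over sh-ctrl (edgeR, TMM); each point is a gene of the list named on the y axis, filled where the adjusted p is under 0.05, and black bars are list medians. The H3.3 genes and chaperones centre on -0.08 with ATRX apart at 1.08, and the replication-coupled list (-0.29) and the other variant histones (-0.44) lie to the left; with library totals alone all points move right by about 0.23 on the log2 scale.

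Among the 2393 genes that averaged 100 CPM or more, those whose 6 libraries followed H3F3A most closely were TXN (root mean square difference 0.00708 on the log2 scale), TM9SF2 (0.0175) and MAPK6 (0.0232). For H3F3B, RARS (0.0158) and AP3B1 (0.0181) were among the closest. The 6 libraries share 2 groups, so these distances describe these libraries only.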

How the data were processed

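HepG2 mRNA libraries (3 sh-ctrl, 3 sh-KIF11) were grouped by the sample labels, which also gave the replicate numbers. The knockdown columns are headed only shRNA with a number. They were matched by that number to sh-KIF11, the only other shRNA in the labels. The 8 genes, the other gene lists and the tests were chosen with earlier results of these data known. The study prepared stranded libraries from polyA RNA, read 150-base pairs on an Illumina sequencer, trimmed reads with Trimmomatic and removed low-quality reads. The submitters' processing notes name bcl2fastq 1.8.4, HISAT2 2.1.0, Cufflinks 2.2.1, HTSeq 0.9.1, DESeq and GRCh38, without their roles. The authors deposited raw counts per gene, not normalized, and FPKM values, which are scaled to transcript length and library size. All sample columns of both tables were used.

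The count test was that of edgeR 4.0.16 in R 4.3.3 (filterByExpr, which kept 12369 of 20030 genes, TMM factors, quasi-likelihood test, group as the only term, two-sided, Benjamini-Hochberg, threshold 0.05). The biological coefficient of variation was 4.87%, and all pairs of libraries in a group differed beyond counting noise (chi-square per degree of freedom 2.62 to 7.83). Sums, shares and ratios were compared by exact permutation over libraries, for which 0.1 is the smallest p. Alternatives were DESeq2 1.42.0, other scalings and filters, limma 3.58.1 on log2(FPKM + 1) and log2(FPKM + 0.1), a replicate block and leaving out each library. All 8 genes were named, with KIF11 and, from each further list, up to 3 called genes with the largest absolute change. HAT1, H2AFY2, UBN2, PML, C22orf39, H3F3C, SETDB1, SUPT16H and SPTY2D1 were named after their values were seen. Coding sequences and gene positions came from GENCODE release 29 (GRCh38), and gene spans from RefSeq (GRCh38.p14), matched by gene identifier. Protein sequences were not used here.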

Additional observations from a re-analysis of the deposited data

How the results depend on the processing

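Under the alternatives, each value got 1 label, and a change of sign was labelled first. In all, 277 values kept direction and side of the threshold or stayed close, and 14 reversed, whether or not their call also changed. Without a change of sign 14 lost their call and 4 gained one, and 11 counts moved. For sums, shares and ratios only the direction was compared. ATRX, its ratio to DAXX, the H3F3A share, the log2 ratio of H3F3A to H3F3B and the ratio of the HIRA complex to DAXX-ATRX kept their direction in every setting run. With library totals alone the genes called higher numbered 5 and those called lower 0, the replication-coupled chaperones called numbered 6, and the log2 fold changes were 0.0207 for H3F3A, 0.26 for H3F3B, 0.13 for HIRA, 0.17 for UBN1, -0.0889 for CABIN1 and 0.0921 for DAXX. With limma on log2(FPKM + 1), 0 of the 8 genes were called lower, 6 replication-coupled chaperones were called, and the values were -0.00599 for H3F3A, 0.21 for H3F3B (adjusted p = 0.00389), 0.11 for HIRA, 0.11 for UBN1, -0.12 for CABIN1 and 0.0315 for DAXX. With log2(FPKM + 0.1) these were again 0 and 6, and -0.00601, 0.21, 0.12, 0.12, -0.13 and 0.0327 for the same genes. These settings also move the median of all genes up (0.235, 0.116 and 0.169, as log2), and the share of higher genes among all called genes goes from 49.8% to 73.6%, 68.5% and 68.6%. With upper-quartile factors UBN1 was 0.0155 and DAXX -0.0599 (adjusted p = 0.304), and 58.5% of called genes were higher. With at least 10 counts in every library DAXX was -0.11 (adjusted p = 0.05, not called). The summed H3.3 difference was -14.8 in TMM-normalized CPM and -7.25 with FPKM rescaled to the same median, against 24.1 FPKM.

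Leaving out 1 library gave log2 fold changes of 0.13 to 0.22 for ASF1A, -0.16 to -0.12 for DAXX, -0.14 to -0.0721 for HIRA and -0.0027 to 0.0634 for H3F3B, which turned sign without sh-ctrl replicate 1. Between 1 and 2 of the 8 genes were then called higher and between 2 and 4 lower. Library scaling and the size of the smallest changes set the limit here: only ATRX and the ratios within a library were stable in size, and the cause of the shift between scalings was not tested. Same-numbered libraries did not deviate together (r = 0.03, -0.0185 and -0.00253), so the numbers were not taken as pairs. With a replicate block the calls numbered 8607 genes, against 8548, and all 8 genes kept their calls and directions, ATRX included.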

Other observations

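Writers and readers of H3K9 methylation, the mark of the silent regions where DAXX and ATRX place H3.3, were divided. Of 10 genes, 2 were higher, 4 lower and 4 not called (median -0.07, edgeR, TMM), against 5 higher and 2 lower with library totals alone. Over all tested genes 69.1% were called with TMM, 34.4% higher and 34.7% lower, so the count called lies near the background. SUV39H1, a methyltransferase of pericentric chromatin, fell by 0.87 on the log2 scale (adjusted p = 1.11e-11), whereas CBX5, which encodes the reader HP1 alpha, rose by 0.62 (1.61e-12). TRIM28, a corepressor that brings SETDB1 to repeats, fell by 0.50 (8.72e-12), and SETDB1 itself was not called (0.07, adjusted p = 0.403).

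Histone chaperones that serve neither H3.3 nor replication alone were lower for 7 of 12 genes, higher for 2 and not called for 3 (median -0.16). The shares over all tested genes were 34.7% lower and 34.4% higher. Under library totals alone 4 of the 12 were lower and 5 higher. ANP32B, an acidic chaperone, fell by 0.75 (adjusted p = 1.18e-17), and HJURP, which loads CENPA at centromeres, fell by 0.58 (2.30e-11). The subunits of FACT, which reorganises nucleosomes during transcription, had opposite signs, SSRP1 at -0.53 (1.11e-12) and SUPT16H at 0.14 (adjusted p = 0.0122). SUPT16H was not called without sh-ctrl replicate 1 (0.11, adjusted p = 0.0755) or without sh-KIF11 replicate 2 (0.11, adjusted p = 0.102). SPTY2D1, a further H3-H4 chaperone, was higher (0.42, adjusted p = 2.81e-06).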
